A study of Torulaspora delbrueckii with 17 samples.

Results

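The regions described here are 2740 peaks scattered along chromosome 8 of the budding yeast Torulaspora delbrueckii, at places where wild-type cells had none. They came from 6 of the 15 deposited peak lists, which together held 3972 peaks, out of 5717 in the series. A peak was taken if it lay on chromosome 8, ended before position 780310, 5 kb left of the first rDNA gene, and overlapped no peak of the 4 wild-type lists by as little as 1 bp. Precipitation of Orc1 from sir2 cells gave 371 of these regions in the first library and 387 in the second. Precipitation of Kos3 from orc1P179A cells gave 657 and 644, and of Orc1 from orc1P179A cells 270 and 411. The regions were chosen by the authors' peak calls in these mutants and their absence from the wild-type calls, so their number and their folds are given as a description, with no test.

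The peaks were obtained by chromatin immunoprecipitation and sequencing (ChIP-seq), in which cross-linked chromatin is sheared, the fragments bound by a protein are pulled down with an antibody, and stretches with more fragments than the background are called as peaks. Both sir2 libraries came from strain LRY3206, with a MYC tag on Orc1. The first orc1P179A library of each immunoprecipitation came from strain LRY3215 and the second from LRY3216, in which the mutant Orc1 carried MYC and Kos3 carried V5. Lists of kos3 cells (LRY3205, 1 Orc1 list) and orc1bah cells (LRY3212, tagged like orc1P179A, 2 lists for each protein) are used beside them. The wild-type lists were 2 for Orc1, from LRY3204 and from LRY3211, whose Kos3 carries V5, and 2 for Kos3, both from LRY3211. Chromatin of the untagged strain JRY10156 served as input, and the labels describe the alleles no further than by these names. All strains were grown in rich medium at 30 °C and fixed for 1 hour in 1% formaldehyde. The libraries of a pair are described by the series as technical replicates. The orc1P179A pairs and the wild-type Orc1 pair each come from 2 strains, so their spread includes that between strains. For the other pairs, from 1 strain each, the spread need not include that between cultures, and sir2 rests on 1 strain. With 2 libraries against 2, no exact permutation test can give a p below 0.333, and none was run.

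Orc1 is the largest subunit of the origin recognition complex, which marks the places where DNA replication starts and which, in budding yeasts, also helps to set up silent chromatin. Its BAH domain binds nucleosomes. Sir2 is a histone deacetylase of silent chromatin. Kos3 belongs to a yeast family related to Sir1, a protein that in Saccharomyces cerevisiae links the origin recognition complex to silencing. Bound sites of Orc1 are usually narrow, discrete places between genes.

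Chromosome 8 left of the rDNA held mostly such scattered regions in the 6 lists. With sir2, 371 of 393 and 387 of 411 peaks there lay outside wild-type sites. For orc1P179A it was 657 of 681 and 644 of 671 peaks with Kos3 precipitated, and 270 of 292 and 411 of 435 with Orc1. Over all chromosomes, peaks that overlapped no wild-type peak made up 60.4% and 62.9% of the lists from sir2. They made up 91.2% and 89.8% of the lists from orc1P179A with Kos3 precipitated, and 51.9% and 62.5% of those with Orc1. These shares come from the comparison that chose the regions, and nothing is read from them.

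On chromosomes 1 to 7 the same criterion left few peaks. For sir2 it left 22 and 35, which is 8.87% and 13.9% of the peaks there. For orc1P179A it left 4 and 8 with Kos3 precipitated (10.8% and 17%) and 5 and 7 with Orc1 (2.17% and 3.14%). Per Mb, the scattered regions of chromosome 8 numbered 475 and 496 in sir2, against 2.62 and 4.18 peaks outside wild-type sites on the other chromosomes of the same lists. For orc1P179A with Kos3 precipitated the densities were 842 and 825 per Mb, against 0.477 and 0.954 on the other chromosomes. With Orc1 precipitated they were 346 and 527 per Mb, against 0.597 and 0.835. None of the 6 lists had more than 7 such peaks on any 1 of the other 7 chromosomes. Chromosome 8 and the 6 lists were chosen with earlier results of these data known, so this contrast is given as a description.

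The 5 mutant lists that the choice did not name had almost no such regions. The lists to name were chosen with earlier results of these data known, so nothing is read from this contrast. The Orc1 list of kos3 cells held 4, the Orc1 lists of orc1bah cells 0 and 1, and the Kos3 lists of orc1bah cells 0 and 1. Over all chromosomes, peaks outside wild-type sites made up 12.7% of the kos3 list, 6.18% and 9.93% of the orc1bah Orc1 lists, and 6.06% and 18% of the orc1bah Kos3 lists. On chromosomes 1 to 7 they made up 12.9% in kos3, 6.78% and 10.5% in orc1bah Orc1, and 7.14% and 17.8% in orc1bah Kos3, of which 1 list has 28 peaks there and the other 45. The input used as background was, by the file names, the same for sir2, kos3 and the first wild-type Orc1 list, and another one was shared by both orc1 alleles, both wild-type Kos3 lists and the second wild-type Orc1 list. By these names, each input served lists with at least 270 scattered regions and lists with at most 4. Peak names number the input of the orc1 alleles differently, so which input library those lists used is uncertain. The part of the input was not tested.

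**Figure D1:**
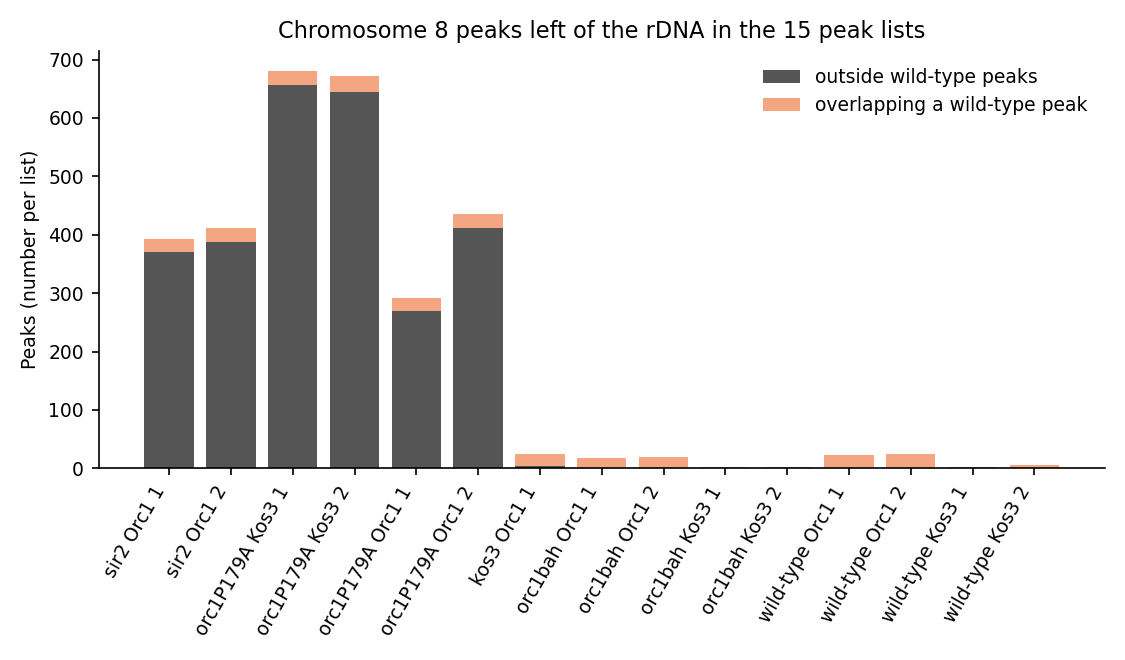
Number of chromosome 8 peaks left of the rDNA in each of the 15 lists, as bars split into peaks outside wild-type peaks and peaks that overlap one (wild-type lists overlap themselves). The 6 lists described here hold from 292 to 681 peaks, and the other 9 at most 25.

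Each of the 6 peaks outside wild-type sites in the other 5 lists overlapped a scattered region. Scattered regions of at least 1 list covered 72.2% of the interval, so most peaks placed anywhere in it would meet one, and nothing is read from this count. One in the kos3 list, at 499404 to 499740 in GIM4, overlapped regions of both sir2 lists and of both orc1P179A Orc1 lists. Another, at 344496 to 344778 in TDEL0H02000, overlapped regions of 4 lists, namely the second sir2 list, both orc1P179A Kos3 lists and the second orc1P179A Orc1 list. The other 2 kos3 peaks and the 2 orc1bah peaks overlapped regions of 1 or 2 lists.

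The regions ran along the whole interval. The first began between 4178 and 4781 in all 6 lists, and the last ended between 776091 and 779928, from 5.38 to 9.22 kb before the rDNA. The 4.18 kb at the left end without a region were mostly wild-type sites, which covered 3.49 kb there. On the other side of the limit, the next peak of each list began between 815898 and 818135, to the right of the rDNA, and overlapped a wild-type peak. No peak right of the limit lay outside wild-type sites in any of the 6 lists. The last region inside the limit had a fold of 2.22 and 2.69 in sir2, of 1.97 and 2.02 in orc1P179A Kos3, and of 2.43 and 2.89 in orc1P179A Orc1. The first peak outside it had folds of 2.16 and 2.69 in sir2, 2.37 and 2.15 in orc1P179A Kos3, and 3.42 and 2.51 in orc1P179A Orc1. A fold here is the authors' value of a peak, the enrichment of the immunoprecipitate over the background, and it describes peaks within 1 list.

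In windows of 50 kb the density varied within a few-fold and no window was empty. Each of the 15 full windows held from 10 to 35 summits in the first sir2 list and from 13 to 36 in the second. It held from 24 to 51 and from 24 to 54 in the orc1P179A Kos3 lists, and from 9 to 27 and from 16 to 41 in the orc1P179A Orc1 lists. The spread over windows, as a coefficient of variation, was 29.5% and 25.9% in sir2, 16.4% and 17.6% in orc1P179A Kos3 and 35.8% and 25.6% in orc1P179A Orc1.

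On average, all 6 lists had fewer regions in the 14th and 15th windows than in the windows before them. These last 2 full windows averaged 10 and 16.5 regions in sir2, against 26.5 in windows 1 to 13 of each list. In orc1P179A they averaged 35.5 and 27.5 in the Kos3 lists, against 43.9 in windows 1 to 13 of each list, and 12.5 and 18.5 in the Orc1 lists, against 18.1 and 27.6. In the first orc1P179A Kos3 list this came from the 15th window, with 24 regions, and not from the 14th, with 47. In the first orc1P179A Orc1 list the lowest count was 9, in the 12th and the 13th window, below the 13 and 12 of the windows after them. The shorter 16th window, next to the rDNA, held 1.98 and 3.299 regions per 10 kb in sir2, 4.95 and 5.94 in orc1P179A Kos3 and 3.299 and 4.95 in orc1P179A Orc1. Windows 1 to 13 averaged 5.31 and 5.29 per 10 kb in sir2, 8.78 in each orc1P179A Kos3 list, and 3.62 and 5.52 in orc1P179A Orc1. The 15th window held 4.8 per 10 kb in each orc1P179A Kos3 list, and 2.4 and 4.2 in orc1P179A Orc1. The second orc1P179A Kos3 list and both orc1P179A Orc1 lists were thus denser in the 16th window than in the 15th. The first Kos3 list was about level, and its regions covered 16.3% of the 16th window against 18.3% of the 15th. Both orc1P179A Orc1 lists came close in the 16th window to their level in windows 1 to 13. At a finer scale, 78 windows of 10 kb were counted. A region was missing from 3 and 1 of them in sir2, from 0 in both orc1P179A Kos3 lists, and from 3 and 0 in the orc1P179A Orc1 lists.

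**Figure D2:**
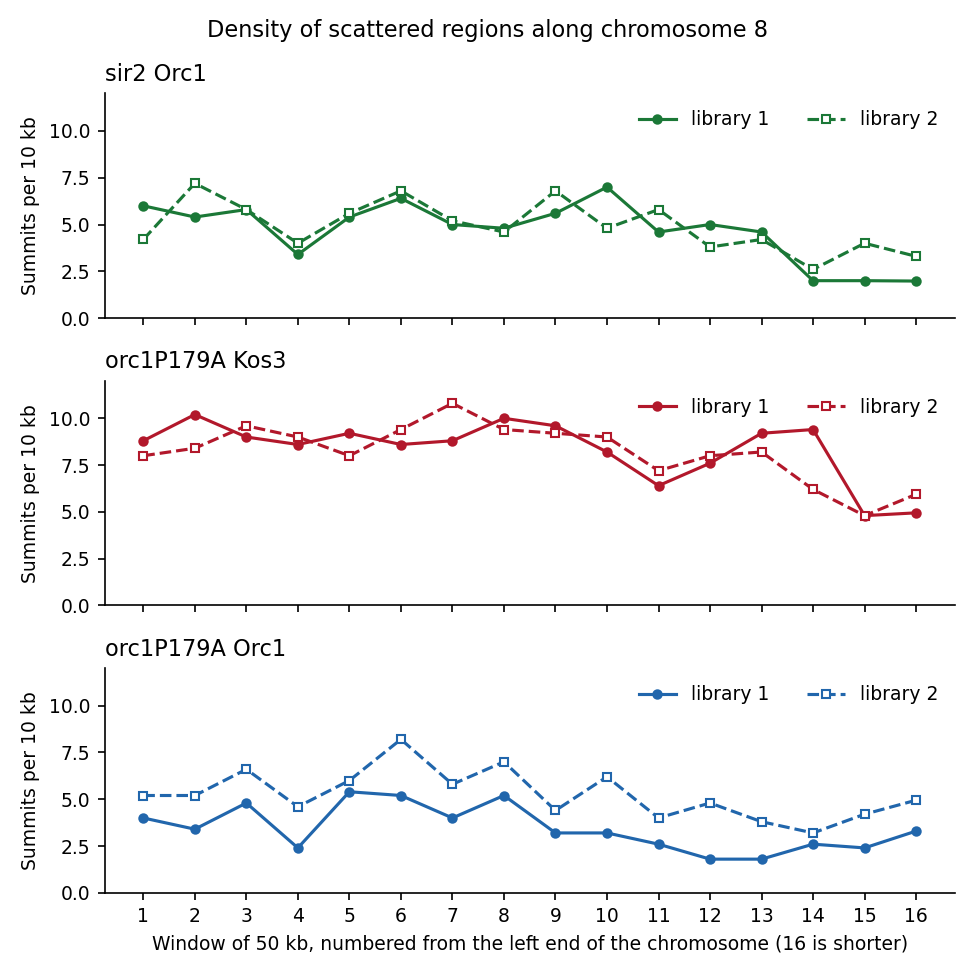
Summits of scattered regions per 10 kb in consecutive 50 kb windows of chromosome 8 left of the rDNA, with 1 panel per group and 1 line per library. The last window is 30.3 kb long, and the lines of all groups are lower in the 15th window than in most of those before it.

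Single regions were short. The median width was 306 and 309 bp in sir2, 386 and 394 bp in the orc1P179A Kos3 lists and 293 and 307 bp in the orc1P179A Orc1 lists. As group values these are 307.5 ± 2.12, 390 ± 5.66 and 300 ± 9.90 bp (mean ± SD, n = 2 libraries). Both Kos3 lists thus had wider regions than either orc1P179A Orc1 list and either sir2 list. The narrowest region had 200 bp in all 6 lists, and the narrowest peak of any of the 15 lists had from 200 to 202 bp, so that width is bounded from below by the peak calls. Regions of 1000 bp or more numbered 9 and 2 in sir2, 31 and 43 in orc1P179A Kos3 and 6 and 10 in orc1P179A Orc1.

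For comparison, peaks of the same lists at wild-type sites of the interval had median widths of 1704 and 1621 bp in sir2, 389 and 448 bp in orc1P179A Kos3 and 1578 and 1516 bp in orc1P179A Orc1. In the Orc1 lists the scattered regions were thus several times narrower than the peaks at wild-type sites, and in the Kos3 lists both were of similar width. The Orc1 peaks at wild-type sites numbered 22 and 24 in sir2 and 22 and 24 in orc1P179A, and the Kos3 peaks there 24 and 27. Few of those sites belong to wild-type Kos3, whose lists held 2 and 5 peaks in the interval, against 22 and 25 in the wild-type Orc1 lists.

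The widest region of each list had its summit in or beside a different gene, and some ran across neighbouring genes as well. In the first sir2 list it spanned 301270 to 303310, with 2041 bp and a fold of 3.19. Its summit lay in TDEL0H01740, and it reached into AIM9 and HOP1. In the second it spanned 373732 to 374942 in JHD1, a histone demethylase gene in Saccharomyces cerevisiae, with 1211 bp and a fold of 2.16. The widest in the first orc1P179A Kos3 list was 598978 to 600804, with 1827 bp. Its summit lay in PSK1, a protein kinase gene, and it also covered 94.7% of PEX15. The widest in the second was 284418 to 286700, with 2283 bp. Its summit lay in SEC28, a gene for a vesicle coat subunit, and it also covered 100% of RCI37. The widest in the orc1P179A Orc1 lists were 111252 to 112408 in ATP2, which encodes an ATP synthase subunit, with 1157 bp, and 609820 to 611688 with its summit between GSH2 and GAL11, with 1869 bp. Each of these 6 regions overlapped scattered regions in 5 or all 6 lists, its own included. Wide regions meet others more readily, and regions of at least 1 list covered 72.2% of the interval, so nothing is read from this count.

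Gaps between neighbouring regions of a list had a median of 1064 and 993 bp in sir2, 453.5 and 422 bp in orc1P179A Kos3, and 1340 and 844.5 bp in orc1P179A Orc1. The group values were 1028.5 ± 50.2, 438 ± 22.3 and 1092 ± 350 bp (mean ± SD, n = 2). Gaps under 500 bp made up 29.5% and 31.6% in sir2, 54.4% and 55.2% in orc1P179A Kos3, and 24.2% and 34.1% in orc1P179A Orc1. The shortest gap was 77 or 78 bp in each of the 6 lists, and from 77 to 110 bp in all 15. Gaps of at least 10 kb numbered 3 and 4 in sir2, 0 in both orc1P179A Kos3 lists, and 9 and 2 in orc1P179A Orc1.

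**Figure D3:**
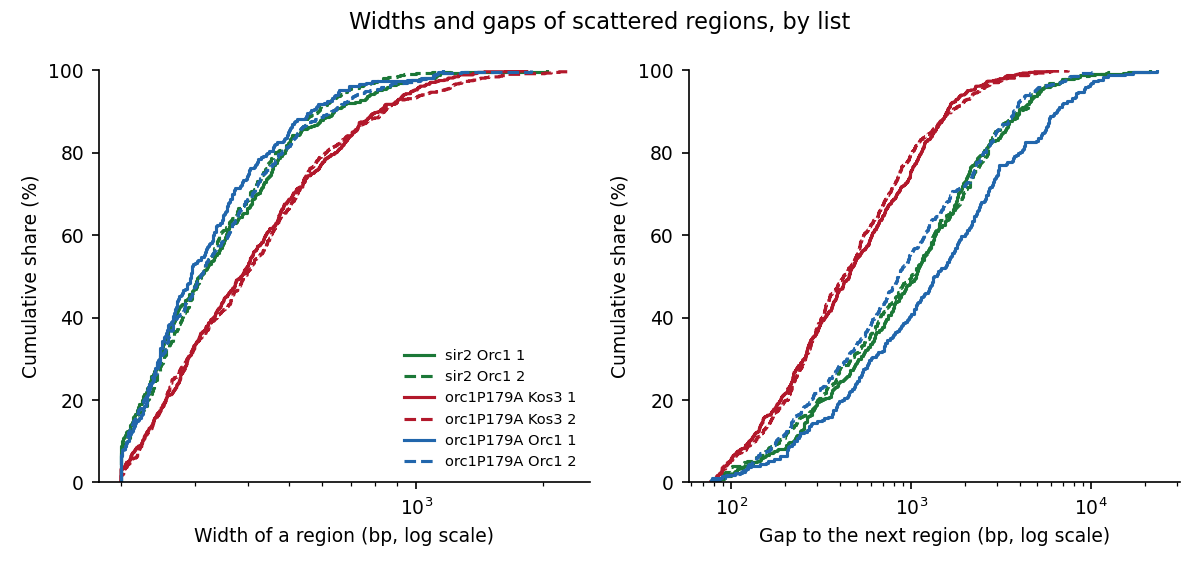
Cumulative share of scattered regions by width (left) and of gaps by length (right), in bp on log axes, with 1 line per list. The 2 Kos3 lines lie towards wider regions and shorter gaps than the 4 Orc1 lines.

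The longest gaps of 3 Orc1 lists fell at the same place. They ran from 652798 to 673940 in the first sir2 list, from 662969 to 676031 in the second and from 660600 to 683958 in the first orc1P179A Orc1 list. Common to them was the stretch from 662969 to 673940, of 10.97 kb. In that stretch the second orc1P179A Orc1 list had 1 region and the orc1P179A Kos3 lists had 8 and 3. The Kos3 regions covered 32.1% and 10.8% of it. The longest gap of the second orc1P179A Orc1 list, of 10281 bp, ran from 578010 to 588290 around MSE1. The Kos3 lists had longest gaps of 5786 bp, at 734529 to 740314 around PRT1, and of 7461 bp, at 502040 to 509500 around TDEL0H03060. Only the last of these and that of the first orc1P179A Orc1 list contained wild-type peaks, 2 and 3 of them.

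Regions covered 141 and 140 kb of the 780 kb in sir2, which is 18.0% and 17.9%. In orc1P179A they covered 303 and 309 kb in the Kos3 lists (38.8% and 39.6%) and 94.9 and 154 kb in the Orc1 lists (12.2% and 19.7%). Laid over each other, the 6 lists left 217 kb, or 27.8%, without any region, and wild-type peaks took up 22.6 kb of the interval. One list covered 225 kb, exactly 2 lists covered 176 kb and 3 covered 103 kb. All 6 lists shared 1.98 kb, 0.253% of the interval. The longest stretches without a region in any list, beyond the left end, were 671304 to 673940 in KRE5, 2.64 kb long, and 736620 to 738994 across BOL1, BOL3 and PRT1, 2.38 kb long. Neither held a wild-type peak.

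The number of regions differed between the immunoprecipitations of orc1P179A. Kos3 lists held 650.5 ± 9.19 regions and Orc1 lists 340.5 ± 99.7 (mean ± SD, n = 2 each), a ratio of 1.91. Both Kos3 libraries lay above both Orc1 libraries. Within strain LRY3215 the ratio of Kos3 to Orc1 regions was 2.43, and within LRY3216 it was 1.57. The 2 Orc1 libraries of this allele come from different strains and held 270 and 411 regions. Sequencing depth is unknown for all lists, and its part in these numbers was not tested.

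Folds lay close to 2. The median was 2.16 and 2.303 in sir2, 2.22 in each orc1P179A Kos3 list, and 2.08 and 2.12 in the orc1P179A Orc1 lists. The middle 50% of the regions had folds from 2.02 to 2.35 in the first sir2 list, from 2.08 to 2.54 in the second, from 2.04 to 2.42 and from 2.07 to 2.42 in the Kos3 lists, and from 1.93 to 2.29 and from 1.94 to 2.27 in the orc1P179A Orc1 lists. Between 1.8 and 2.6, limits chosen after the values were seen, lay 83.8% and 74.9% of the regions in sir2, 86.6% and 84.5% in orc1P179A Kos3, and 86.7% and 86.4% in orc1P179A Orc1.

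Peaks of the same lists at wild-type sites of the interval had median folds of 12.6 and 11.8 in sir2, and of 10.7 and 9.60 in orc1P179A Orc1. In the orc1P179A Kos3 lists their median folds were 2.09 and 2.34, and their highest folds 2.87 and 2.90. Scattered regions of these lists had median folds of 2.22 in each and highest folds of 3.13 and 3.59. Peaks at wild-type sites thus had the lower median in the first Kos3 list and the higher one in the second, and the lower maximum in both. The lists hold no read depth, so the coverage and the number of copies of chromosome 8 in these strains were not measured.

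The q-values, which are p-values corrected for the number of places tested, spread over a wide range. The median −log10 q was 4.88 and 5.15 in sir2, 4.83 and 4.72 in orc1P179A Kos3, and 4.30 and 4.71 in orc1P179A Orc1. A −log10 q of at least 10 was reached by 14 and 26 regions in sir2 (3.77% and 6.72%), by 18 and 19 regions in orc1P179A Kos3 (2.74% and 2.95%) and by 7 and 10 in orc1P179A Orc1 (2.59% and 2.43%). The lowest values were 1.38 and 1.47 in sir2, 1.64 and 1.37 in orc1P179A Kos3 and 1.32 in each orc1P179A Orc1 list, against 1.31 as the lowest in any of the 15 lists.

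One region stood out by its fold. It lay around the prefoldin gene GIM4, next to the sugar transporter gene YEA4, and was the highest-fold region in 3 Orc1 lists. It spanned 499081 to 500376 with a fold of 4.15 in the first sir2 list, 499181 to 500013 with a fold of 6.49 in the second, and 499333 to 499846 with a fold of 3.20 in the first orc1P179A Orc1 list. In the second orc1P179A Orc1 list it spanned 499498 to 499764, and its fold of 2.34 ranked 76th. The summits of these 4 regions lay between 499475 and 499663. The orc1P179A Kos3 lists had no peak overlapping 499333 to 499846, the span of the first orc1P179A Orc1 region, while the kos3 Orc1 list had one with a fold of 1.95. Neither the orc1bah lists nor the wild-type lists had a peak overlapping that span. The wider sir2 regions each overlapped regions of all 6 lists, their own included, and thus also regions of both Kos3 lists. The next folds below it were 3.29 in the first sir2 list, in the siderophore transporter gene ARN2, 3.27 in the second, in the proteasome gene RPN13, and 2.83 in the first orc1P179A Orc1 list, in the mitochondrial import gene TIM17.

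In the other 3 lists, the highest folds were at other places. The second orc1P179A Orc1 list had 3.05 at 544894 to 545259, across the tRNA gene TDEL0Htrna6T, followed by 2.94 in the cyclin gene CLN3. The Kos3 lists had 3.13 at 437793 to 438127 in MET10, a gene of sulfite reduction, and 3.59 at 74240 to 75471 with the summit in MMS1, a gene of DNA repair.

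Recurrence between lists was partial. In the sir2 pair, 50.9% of the regions of the first library overlapped one of the second and 49.9% the other way. In the orc1P179A Kos3 pair it was 74.4% and 73.3%. In the orc1P179A Orc1 pair it was 57.8% of the smaller, first list and 38.2% of the second. Lists that cover more of the interval are overlapped more, so the share of summits that fell inside regions of the other list was set beside the share of bases which that list covers.

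In all 30 ordered pairs of lists the share of summits was the higher of the 2. Their ratio ran from 1.19 to 2.04. It was 1.73 and 1.65 in the sir2 pair, 1.32 and 1.27 in the orc1P179A Kos3 pair, and 2.01 and 2.04 in the orc1P179A Orc1 pair. The highest ratio possible is lower where the other list covers more bases, so the ratio does not rank pairs of unlike coverage. The bases counted include the 22.6 kb of wild-type peaks, where no region can lie, which raises it slightly. Across immunoprecipitations in orc1P179A, from 16.1% to 26.1% of Kos3 summits fell in Orc1 regions, which cover 12.2% and 19.7% of the bases (ratio 1.28 to 1.51). Of the Orc1 summits, from 50.1% to 55.6% fell in Kos3 regions, which cover 38.8% and 39.6% (ratio 1.29 to 1.43). Between mutants, from 24.8% to 27.8% of orc1P179A Orc1 summits fell in sir2 regions, which cover 17.9% and 18.0% (ratio 1.38 to 1.55). By both file and peak names, the libraries of a mutant share an input and those of sir2 and orc1P179A have different ones, although the 2 kinds of name number the input of orc1P179A differently.

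By overlap, 74.0% ± 2.56 of orc1P179A Orc1 regions overlapped a Kos3 region of that mutant, and 38.3% ± 7.61 of the Kos3 regions an Orc1 region (mean ± SD over 4 pairs of lists). In libraries from the same strain the shares were 72.6% and 37.4%. Of the orc1P179A Orc1 regions 45.0% ± 0.895 overlapped a sir2 region, and of the sir2 regions 40.2% ± 8.09 an orc1P179A Orc1 region. These means rest on overlapping use of the same 6 lists and are not independent.

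Regions of higher −log10 q recurred more often in the other library of their pair in the orc1P179A lists. For Kos3 the shares were 88.9% and 89.5% at a −log10 q of at least 10, 80.8% and 81.1% from 5 to 10, and 69.2% and 66.1% below 5. For orc1P179A Orc1 they were 71.4% and 60% at 10 or more, 66.7% and 45.7% from 5 to 10, and 52.4% and 32.2% below 5. In sir2 they were 57.1% and 57.7% at 10 or more, 53.6% and 48.9% from 5 to 10, and 48.2% and 49.7% below 5. The highest class held from 7 to 26 regions per list. Regions of higher −log10 q are also wider, with medians from 409 to 797 bp in the highest class and from 269 to 334 bp in the lowest, and wider regions meet others more readily.

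**Figure D4:**
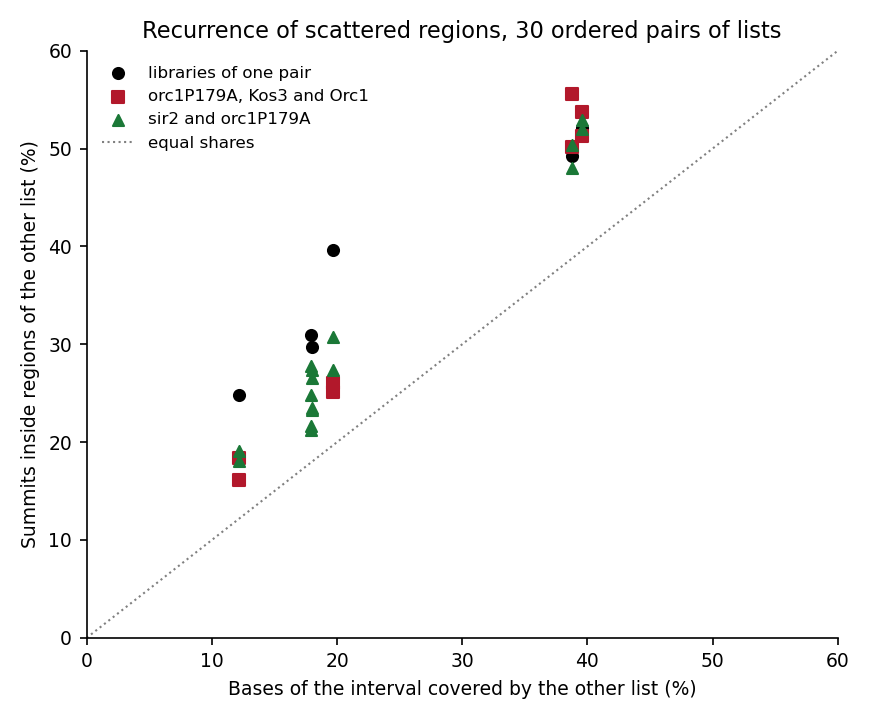
Share of summits that fall inside scattered regions of another list (vertical, %) against the share of bases of the interval which that list covers (horizontal, %), for the 30 ordered pairs of the 6 lists. Circles stand for libraries of 1 pair, squares for Kos3 and Orc1 in orc1P179A and triangles for sir2 and orc1P179A. All points lie above the dotted line of equal shares, and the 2 points of the orc1P179A Orc1 pair have the highest ratios, 2.01 and 2.04. The highest ratio possible is lower where the other list covers more bases, so the ratios do not rank the pairs.

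Most regions overlapped some but not all of the other lists. With 72.2% of the interval covered by at least 1 list and 43.4% by at least 2, overlap with some other list is frequent by coverage alone, and these counts are given as a description. Of the sir2 regions 17 and 18 overlapped none of the other 5 lists, of the orc1P179A Kos3 regions 53 and 63, and of the orc1P179A Orc1 regions 2 and 19. Overlap with all 5 other lists was found in sir2 for 38 and 42 regions (10.2% and 10.9%), in orc1P179A Kos3 for 49 and 45 (7.46% and 6.99%) and in orc1P179A Orc1 for 39 and 42 (14.4% and 10.2%).

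The bases shared by all 6 lists formed 21 segments of 12 to 251 bp, and the midpoint of 20 of them lay in a gene. They were ranked by the mean percentile of fold within each list. The first was at 212893 to 212922 in TDEL0H01240, with folds of 2.61 and 3.19 in sir2, 2.197 and 2.34 in orc1P179A Kos3, and 2.29 and 2.36 in orc1P179A Orc1. The second was at 269126 to 269202 in CDC48, whose product unfolds ubiquitylated proteins, with folds of 2.02 and 2.91 in sir2, 2.48 and 2.62 in orc1P179A Kos3, and 2.52 and 2.31 in orc1P179A Orc1. The third was at 236020 to 236102 in DCK1, with folds of 2.32 and 2.47 in sir2, 2.25 and 2.38 in orc1P179A Kos3, and 2.47 and 2.53 in orc1P179A Orc1. The next 7 lay in FIS1 (mitochondrial fission), HOP1 (meiotic chromosome axis), TDEL0H01440, CAJ1 (a DnaJ-type chaperone), SAP1 (an AAA-type ATPase), LYS21 (lysine synthesis) and ADO1 (adenosine kinase). These roles are known from Saccharomyces cerevisiae. Folds at the first 10 segments lay from 1.62 to 3.19. The 1 segment between genes, at 139592 to 139627, lay between TFA2 and SMT1.

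Most scattered regions lay within genes, as do most bases of the interval. Summits outside annotated genes made up 13.7% and 12.7% in sir2 (51 of 371 and 49 of 387), 9.44% and 10.7% in orc1P179A Kos3 (62 of 657 and 69 of 644), and 18.5% and 16.8% in orc1P179A Orc1 (50 of 270 and 69 of 411). Of all bases of the interval 20.2% lay outside genes, and 19.3% of those outside wild-type peaks. The sir2 and orc1P179A Kos3 lists were thus below the share of bases, and the orc1P179A Orc1 lists were near it, with 19.0% and 18.6% of their covered bases outside genes. The mean over libraries was 13.2% ± 0.767 in sir2, 10.1% ± 0.903 in orc1P179A Kos3 and 17.7% ± 1.22 in orc1P179A Orc1 (mean ± SD, n = 2). Both orc1P179A Kos3 libraries lay below both Orc1 libraries of that allele.

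Peaks of the same lists at wild-type sites had 77.3% and 79.2% of their summits outside genes in sir2, 37.5% and 37.0% in orc1P179A Kos3, and 77.3% and 79.2% in orc1P179A Orc1. In the 4 wild-type lists themselves it was 79.6%, 43 of 54 peaks. In each of the 6 lists the share was thus lower for the scattered regions than for peaks at wild-type sites. The classes were split by overlap with wild-type peaks, which had 50.6% of their bases outside genes, against 19.3% elsewhere. This direction was thus favoured by the choice, and nothing is read from it. Against wild-type Kos3 peaks alone, orc1P179A Kos3 had 671.5 regions on average instead of 650.5. Most Kos3 peaks at wild-type sites thus met wild-type Orc1 peaks only. No test was run, since summits of a list are not replicates. Within 1 kb of a wild-type peak lay from 4.14% to 5.18% of the summits of a list, against 5.62% of the bases outside wild-type peaks. The median distance of a summit to the nearest wild-type peak was 8179 and 9357 bp in sir2, 10101 and 9936.5 bp in orc1P179A Kos3, and 8718 and 9835 bp in orc1P179A Orc1, against 10227 bp for all bases outside wild-type peaks.

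**Figure D5:**
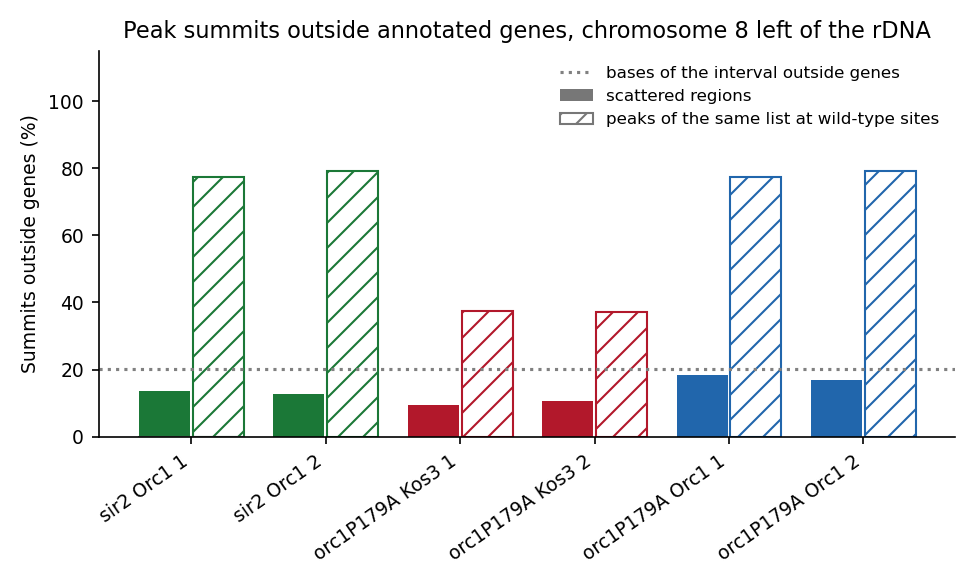
Share of peak summits outside annotated genes (%), for the scattered regions (filled bars) and for peaks of the same list at wild-type sites (hatched bars), with the share of bases outside genes as a dotted line at 20.2%. All filled bars lie below the line, those of orc1P179A Orc1 closest to it, and all hatched bars above it. Filled and hatched bars were split by overlap with wild-type peaks, which lie largely outside genes, so nothing is read from their difference.

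The interval holds 456 annotated genes, of which regions touched 262 and 273 in sir2 (57.5% and 59.9%), 374 and 371 in orc1P179A Kos3 (82% and 81.4%) and 215 and 294 in orc1P179A Orc1 (47.1% and 64.5%). In all 6 lists 81 genes were touched, and 18 in none, of which 8 were tRNA genes and 10 protein-coding. Wild-type peaks overlapped 8 of these 10. The mean share of a gene's length covered by regions over the 6 lists had a median of 27.6% for all genes.

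The 10 genes covered most were TDEL0H00750, HNT1, QCR2, FIS1, TDEL0H00180, RCF3, PRO3, GCN3, RHO1 and DPI8, with mean shares from 65.4% to 76.8%. In TDEL0H00750, the first, regions covered 100% and 0% in sir2, 90.8% and 100% in orc1P179A Kos3, and 92.0% and 77.9% in orc1P179A Orc1. In HNT1, a gene of a nucleotide hydrolase, they covered 97.8% and 90.4% in sir2, 59.3% and 55.9% in orc1P179A Kos3, and 55.9% and 88.8% in orc1P179A Orc1. In QCR2, which encodes a subunit of respiratory complex III, they covered 64.2% and 40.2% in sir2, 50.6% and 100% in orc1P179A Kos3, and 97.5% and 84.0% in orc1P179A Orc1. In RHO1, which encodes a GTPase of cell wall synthesis, they covered 75.8% and 77.6% in sir2, 65.1% and 69.5% in orc1P179A Kos3, and 15.5% and 92.7% in orc1P179A Orc1. Libraries of 1 pair thus differed by up to the whole length of a gene, and neighbours in this order do not differ beyond that spread.

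Genes of different length were not covered alike in the Orc1 lists. In the 111 shortest protein-coding genes, of 114 to 711 bp, regions covered on average 26.3% and 25.8% of the gene in sir2, against 15.8% and 15.2% in the 109 longest, of 1794 to 12240 bp. In orc1P179A Orc1 they covered 20.8% and 31.5% in the shortest, against 9.04% and 16.6% in the longest. The orc1P179A Kos3 lists covered 43.6% and 42.7% in the shortest, against 41.7% and 40.5% in the longest. This split was chosen after the data were seen.

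Transfer RNA genes are short and transcribed by RNA polymerase III. Regions touched 0 and 4 of the 16 tRNA genes in sir2, 1 and 0 in orc1P179A Kos3, and 6 and 7 in orc1P179A Orc1. Of all genes the orc1P179A Orc1 lists touched 47.1% and 64.5%, but longer genes are touched more readily, so nothing is read from the smaller share of tRNA genes. In the first of these lists, 1 of the 6 touches covered only 1.35% of the gene, TDEL0Htrna2K. The mean share of tRNA gene length covered was 0% and 21.3% in sir2, 6.25% and 0% in orc1P179A Kos3, and 28.1% and 43.75% in orc1P179A Orc1. Of all bases of the interval, regions covered 18.0% and 17.9% in sir2, 38.8% and 39.6% in orc1P179A Kos3, and 12.2% and 19.7% in orc1P179A Orc1. By length, the tRNA genes were thus covered more than the interval in both orc1P179A Orc1 lists. The value for tRNA genes is a mean over genes, and that for the interval is a share of bases. By the same mean over genes, the shortest protein-coding genes were covered at 20.8% and 31.5% in these lists. Being covered more than the interval was thus shared by other short genes. The Kos3 lists, which covered 44.9% and 44.6% of protein-coding genes on average, thus covered less of the tRNA genes than the Orc1 lists of the same strains, which covered 15.2% and 23.8% of protein-coding genes. In sir2 regions covered 22.1% and 21.8% of protein-coding genes, close to the tRNA share of 21.3% in the second library and above that of 0% in the first. Both orc1P179A Orc1 lists held regions at TDEL0Htrna7L, TDEL0Htrna9R, TDEL0Htrna6A, TDEL0Htrna4E and TDEL0Htrna6T. The second sir2 list held regions at the first 3 of these. Wild-type peaks covered 3 of the 8 tRNA genes that no region touched, and by the choice no region could lie there.

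Of the other gene lists, 5 ribosomal protein genes lay in the interval, all touched in at least 1 list and none in all 6. Their mean covered share had a median of 25.1%, close to that of all genes. RPS15 had the highest, 57.6%, and RPL29 the lowest, 13.6%. The only gene of the silencing, origin and histone list was ORC4, which encodes another subunit of the origin recognition complex. Regions covered 24.9% and 0% of ORC4 in sir2, 30.9% and 56.4% in orc1P179A Kos3, and 26.0% and 34.7% in orc1P179A Orc1. No gene of the glycolysis and elongation list lay in the interval.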

How the data were processed

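Peak lists of 15 immunoprecipitation libraries were used; 2 input libraries were not analysed here. Bowtie2 2.3.4.1 and MACS2 2.2.7.1 are named in the submitters' processing notes; build, filters and threshold are not given in the sources used here. The deposited lists give, per peak and library, a fold enrichment (a ratio over background), −log10 p and −log10 q values, and a whole-number score within 1 of 10 times the −log10 q, all computed by the authors. Each library was called by itself, against 1 of 2 inputs by the file names; peak names hold the word subsample and number the input 3 in the 11 lists whose file names number it 2. Both names split the lists alike, but which input library was used in the 11 is uncertain. No read counts are included, so depth is unknown and the number of peaks limits precision.

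Coordinates were made 1-based. Gene names came from RefSeq assembly ASM24337v1, by the chromosome entries that the lists name. For strong wild-type Orc1 summits, 68.8% to 87.3% lay outside genes of the same chromosome, and at most 40.5% with genes of another. Values were computed with Python 3.11.15, pandas 2.3.3 and numpy 2.4.6. Overlap meant at least 1 bp. Interval functions were tested on simulated data, where 100 of 100 planted overlaps were found. Segments shared by all 6 lists were named by mean fold percentile, genes by mean covered share, and per list the widest region, highest fold and longest gap. The regions and gene lists were chosen with earlier results of these data known. Same-numbered orc1P179A libraries come from the same strain and were compared within it.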

Additional observations from a re-analysis of the deposited data

How the results depend on the processing

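Of 256 values under the alternatives, 199 moved by less than the spread between libraries, or by under 1.5 times for counts. Many of these could not have moved. Leaving out 1 library of a pair shifts a mean by less than that spread by arithmetic, and leaving out either wild-type Kos3 list changed no value. The total is therefore no measure of robustness. With a limit of 5 or of 10 on −log10 q, 21 of 23 values moved each time. With a −log10 q of at least 5, sir2 Orc1 had 192 regions (median width 345.75 bp, gap 2339 bp, fold 2.43), orc1P179A Kos3 had 291.5 (478.5 bp, 1174 bp, 2.44) and orc1P179A Orc1 had 136 (359.25 bp, 3428.5 bp, 2.32). With at least 10, sir2 Orc1 had 20 (478 bp, 26487 bp, 3.002), orc1P179A Kos3 had 18.5 (669 bp, 23356 bp, 2.96) and orc1P179A Orc1 had 8.5 (494 bp, 50432 bp, 2.77). Summits outside genes made up 11.2% in sir2 and 8.91% in orc1P179A Kos3 at 5, and 5.26% in orc1P179A Kos3 and 34.3% in orc1P179A Orc1 at 10, the last above the share of bases and from 7 and 10 regions. The cause was not tested. Both libraries of a pair were limited alike, which leaves fewer regions to meet. The pairs then overlapped at 28.7% in sir2, 47.2% in orc1P179A Kos3 and 32.6% in orc1P179A Orc1 at 5, and at 10.99% in sir2, 0% in orc1P179A Kos3 and 12.1% in orc1P179A Orc1 at 10. At 5 and 10, orc1P179A Kos3 regions overlapped Orc1 regions at 20.4% and 1.32%, and Orc1 regions Kos3 regions at 44.3% and 3.57%. Overlap of orc1P179A Orc1 with sir2 was 30.4% and 7.14%, and of sir2 with orc1P179A Orc1 20.6% and 2.75%. With an overlap of 50% of the shorter region, the pairs gave 38.7% in sir2 and 62.1% in orc1P179A Kos3, Kos3 in Orc1 30.5%, Orc1 in Kos3 59.7%, orc1P179A Orc1 in sir2 32.0% and sir2 in orc1P179A Orc1 29.0%. With summits within 200 bp, the pairs gave 31.8% in sir2, 42.4% in orc1P179A Kos3 and 31.8% in orc1P179A Orc1, Kos3 in Orc1 21.5%, Orc1 in Kos3 41.5%, orc1P179A Orc1 in sir2 28.2% and sir2 in orc1P179A Orc1 25.3%. The median fold of orc1P179A Kos3 was 2.21 at 1000 bp or more from wild-type peaks and 2.22 with wild-type Kos3 peaks alone. Without single libraries, the ratio of Kos3 to Orc1 regions in orc1P179A lay from 1.58 to 2.41, and orc1P179A Orc1 had 411 regions without the first and 270 without the second library. With the replicate block, which pairs orc1P179A libraries by strain, the mean of the ratios was 2.00, and no share moved beyond its spread. Read depth, unknown here, limits how far numbers of regions can be compared between lists.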
